A study of Cicer arietinum with 4 samples.

Results

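The 7 genes described here carry symbols of the mitogen-activated protein kinase (MAPK) cascade of chickpea (*Cicer arietinum*), a grain legume. They are MAPK3, MAPK11, MAPK12, MAPK16 and MPK1, which bear MAPK symbols, and CAMKK2 and CAMKK5, whose symbols are read here as MAPK kinases. They are 7 of the 28783 genes in the deposited table and were taken by their symbols. The choice was made with their change after fertilization known, since 6 of them had been called in that comparison and MPK1 had not. What follows on post- against pre-fertilization ovules is therefore a description for these genes, without a test.

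RNA sequencing of cultivar ICC4958 covered post-fertilization ovules, taken from partly opened flowers, and pre-fertilization ovules, taken from closed buds. Each group has 2 libraries, called post A and post B, and pre A and pre B, with letters that carry no order. No treatment, mutation or other cultivar is given in the labels, so flower stage and fertilization cannot be told apart. The values are FPKM, fragment counts scaled by the authors to transcript length and library size. The labels do not say whether the 2 libraries of a group came from separate plants, so the spread between them may be technical.

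A MAPK cascade passes a signal from one kinase to the next by phosphorylation. A MAPK kinase kinase activates a MAPK kinase, and the MAPK kinase activates a MAPK, which then phosphorylates transcription factors and other proteins. In plants these cascades work in immunity, stress responses and cell division, and in *Arabidopsis* they also act in ovule and embryo development. Most of their control is by phosphorylation of the protein, which transcript levels do not measure. The numbers in the chickpea symbols follow genome position. In the deposited coordinates all 13 placed MAPK genes, with MPK1 listed in RefSeq as CaMAPK10, run in the order of their numbers along the chromosomes, and so do all 6 CAMKK genes. Roles of like-numbered *Arabidopsis* kinases were therefore not carried over. CAMKK also stands for a calcium-regulated kinase in animals, and the files give no product names, so the place of the CAMKK genes in the cascade rests on the symbol alone.

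Depth relative to pre A was 1.01 in post A, 1.11 in post B and 0.549 in pre B, from the FPKM that single fragments are worth on genes under 0.3 FPKM. Absolute depth is unknown. Small nuclear RNA genes held 50.7% and 54.1% of the summed FPKM in post A and post B, against 38.7% and 43.7% in pre A and pre B, and their part in the results was not tested. Protein-coding genes summed to a larger total after fertilization. Dividing each library by that sum shifted the median log2 fold change over all genes tested to -0.13, against 0.02 with the authors' scaling, and quantile normalization moved it to -0.14. Of 11 ovule and carpel marker symbols 0 were found in the table, so the tissue label could not be checked by them. In these bulk libraries fewer cells of a type and less RNA per cell cannot be told apart.

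The 2 CAMKK genes showed the largest fold differences in mean level of the 7, in opposite directions. CAMKK2 lies on chromosome 6 from 59135443 to 59137316 in the deposited coordinates, for which the sources used here name no build. It stood at 7.49 FPKM in post A and 7.35 in post B, against 28.1 in pre A and 33.5 in pre B. Both post-fertilization libraries were far below both pre-fertilization ones, and the post-fertilization pair nearly coincided. Mean CAMKK2 was 7.42 ± 0.0984 FPKM after fertilization and 30.8 ± 3.77 before (SD, n = 2 each), 4.15-fold lower after. Over the 4 pairings of a pre- with a post-fertilization library this ratio ran between 3.76 and 4.55. Its log2 fold change on the log2(FPKM + 1) scale was -1.91 (SE 0.13), and 6.75% of all tested genes had a larger absolute change. In the ranking of tested genes by level, CAMKK2 was above 34.5% and 32.4% of them in post A and post B, and above 75.0% and 79.7% in pre A and pre B.

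CAMKK5, on chromosome 8 from 11859206 to 11860485, went the other way. Its level was 15.4 FPKM in post A and 18.6 in post B, against 5.95 in pre A and 7.55 in pre B. The lower post-fertilization library was still above the higher pre-fertilization one. The means were 17.0 ± 2.23 FPKM after fertilization and 6.75 ± 1.13 before (SD, n = 2 each), a 2.52-fold higher level after. The log2 fold change was 1.22 (SE 0.17), on a scale that understates changes of low genes, and 14.6% of tested genes had a larger one in size. Both CAMKK genes are short. CAMKK2 spans 1874 bp and CAMKK5 1280 bp, where the median of tested genes is 3840 bp, while the 5 MAPK genes span between 3153 bp (MPK1) and 6318 bp (MAPK16).

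**Figure D1:**
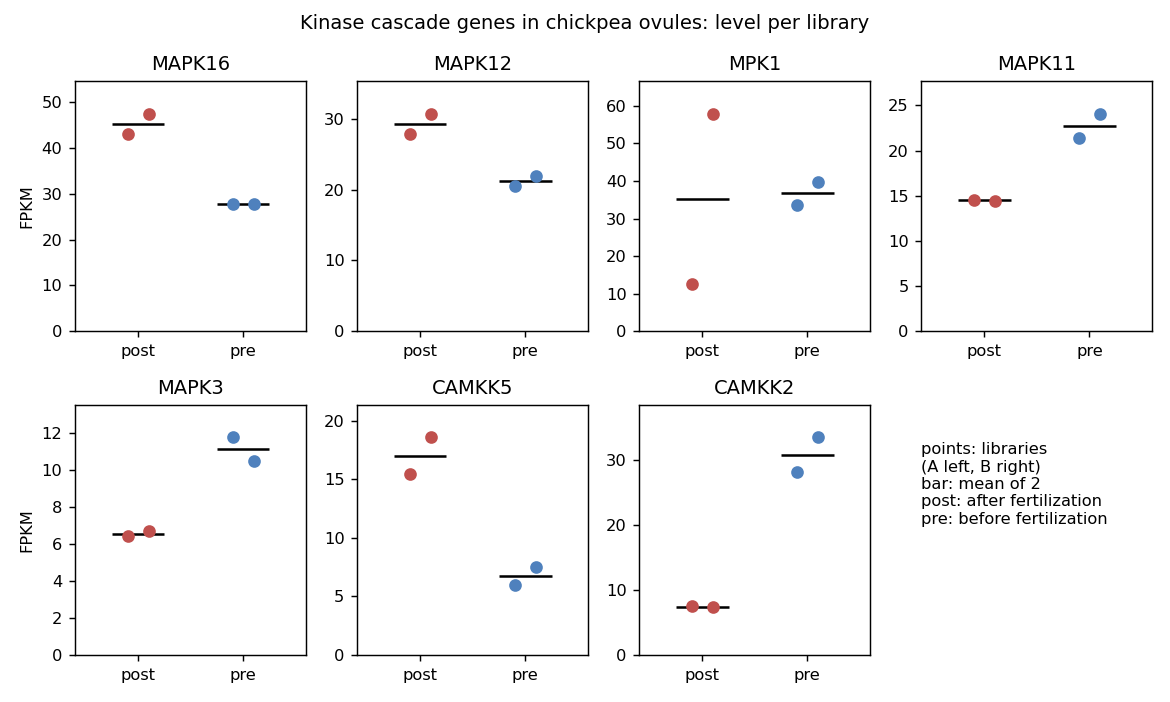
FPKM of each of the 7 genes (y axis, linear from 0) in post-fertilization (red, left) and pre-fertilization (blue, right) libraries; points are libraries and bars the mean of 2. The groups are apart for 6 genes, while the post-fertilization points of MPK1, 12.7 and 57.9 FPKM, enclose its pre-fertilization points.

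MAPK16 and MAPK12 were higher after fertilization. MAPK16 is on an unplaced scaffold of the deposited coordinates, from 74623 to 80940, and on chromosome 5 in the RefSeq table of another assembly. It stood at 42.9 FPKM in post A and 47.4 in post B, against 27.7 in pre A and 27.8 in pre B. The pre-fertilization libraries coincided, and both post-fertilization libraries lay well above them. Mean MAPK16 was 45.2 ± 3.19 FPKM after and 27.7 ± 0.0800 before (SD, n = 2 each), or 1.63-fold higher, with a log2 fold change of 0.68 (SE 0.10).

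MAPK12, on chromosome 7 from 36082950 to 36088244, differed least of the 6 genes whose groups were apart. Its level was 27.8 FPKM in post A and 30.7 in post B, against 20.6 in pre A and 21.9 in pre B. The groups did not overlap, but the gap between them was narrow. Mean MAPK12 was 29.3 ± 2.02 FPKM after and 21.2 ± 0.948 before (SD, n = 2 each), 1.38-fold higher, with a log2 fold change of 0.44 (SE 0.11). That log2 fold change was 0.33 with quantile normalization and 0.28 when libraries were divided by their protein-coding sum. Of all tested genes, 48.9% had a larger absolute log2 fold change than MAPK12.

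MAPK11 and MAPK3 were lower after fertilization. MAPK11, on chromosome 7 from 5734714 to 5740938, stood at 14.6 FPKM in post A and 14.4 in post B, against 21.4 in pre A and 24.1 in pre B. The post-fertilization libraries nearly coincided and both were below the pre-fertilization ones. Mean MAPK11 was 14.5 ± 0.110 FPKM after and 22.7 ± 1.93 before (SD, n = 2 each), 1.57-fold lower, with a log2 fold change of -0.61 (SE 0.11).

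MAPK3, on chromosome 2 from 34318518 to 34324713, was the least abundant of the 7 after fertilization. Its level was 6.45 FPKM in post A and 6.70 in post B, against 11.8 in pre A and 10.5 in pre B. Here too the post-fertilization pair lay close together and below both others. Mean MAPK3 was 6.58 ± 0.178 FPKM after and 11.2 ± 0.908 before (SD, n = 2 each), 1.70-fold lower, with a log2 fold change of -0.68 (SE 0.13). RefSeq lists 4 transcripts for MAPK3 and 1 for each of the other 6 genes, and the table gives 1 value per gene, so isoforms were not resolved.

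MPK1 is the one gene of the 7 whose groups overlapped. It lies on chromosome 6 from 27378417 to 27381569. MPK1 stood at 12.7 FPKM in post A and 57.9 in post B, against 33.7 in pre A and 39.9 in pre B. Post A was the lowest of the 4 libraries and post B the highest, so the pre-fertilization libraries lay between them. The means were close, at 35.3 ± 32.0 FPKM after and 36.8 ± 4.37 before (SD, n = 2 each). Its log2 fold change of -0.41 (SE 0.71) became 0.65 without post A and -1.46 without post B, so its direction rests on which post-fertilization library is used.

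Few genes differed as much between post A and post B. On the log2(FPKM + 1) scale MPK1 was 2.11 higher in post B than in post A, and 177 of the 17849 tested genes (0.992%) differed by more in either direction. The median absolute difference between these libraries was 0.20 over tested genes. Among the other 6 genes the same difference was between -0.02 (CAMKK2) and 0.25 (CAMKK5). MAPK9, which ends 132265 bp before MPK1 begins, did not share the pattern, with 21.7 FPKM in post A and 17.7 in post B, against 21.2 and 20.2 in the pre-fertilization libraries. Nor did the gene that begins 556 bp after MPK1, at 12.3 FPKM in post A and 9.09 in post B, against 13.4 in both pre-fertilization libraries.

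**Figure D2:**
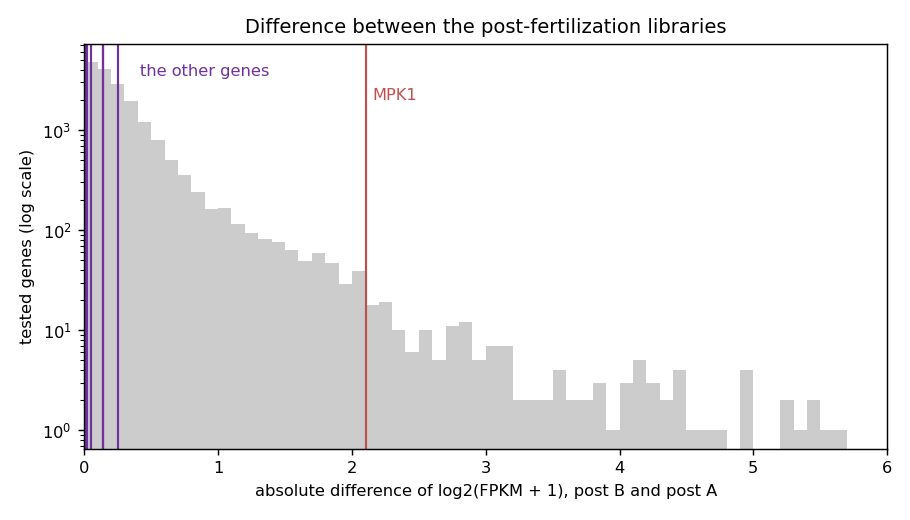
Absolute difference of log2(FPKM + 1) between post B and post A (x axis) against the number of tested genes in bins of 0.1 (y axis, log scale); the 20 genes at 6 or above are not drawn. Vertical lines mark the 7 genes, with MPK1 at 2.11 and the other 6 at 0.25 or below.

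Ratios of genes within a library do not change when the whole library is scaled. They show how genes moved relative to each other, free of scaling between libraries, but not the direction of either gene. The pairs were picked for their opposite directions and the ratios are descriptions. CAMKK5 was 2.06 and 2.53 times the level of CAMKK2 in post A and post B, against 0.211 and 0.226 times in pre A and pre B. The more abundant of these kinases was thus CAMKK5 in both post-fertilization libraries and CAMKK2 in both pre-fertilization ones. MAPK16 exceeded MAPK3 by 6.65 and 7.08 times in post A and post B, against 2.35 and 2.64 times in pre A and pre B. MAPK12 was at 1.91 and 2.13 times MAPK11 after fertilization, against 0.963 and 0.909 times before, when the levels of the pair were near equal. For the neighbours MPK1 and MAPK9, chosen by position, the ratio was 0.585 and 3.28 in post A and post B, and 1.59 and 1.97 in pre A and pre B.

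**Figure D3:**
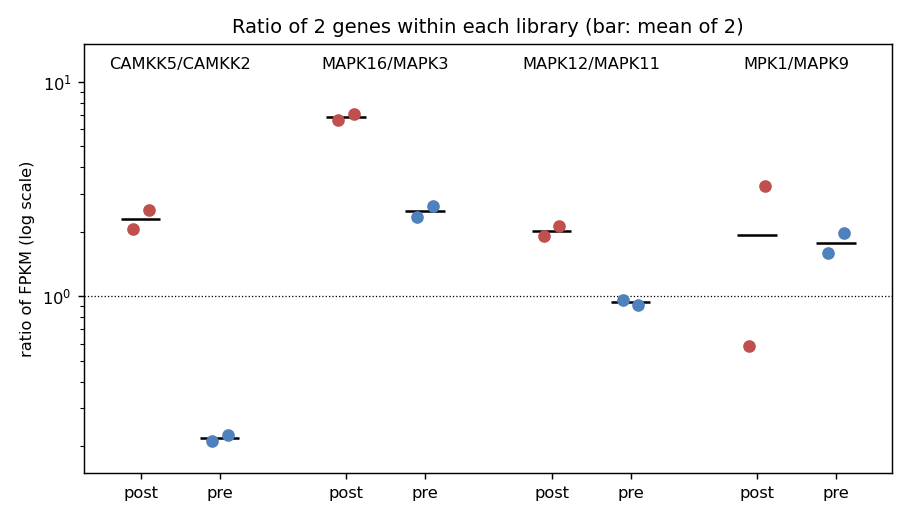
Ratio of the FPKM of 2 genes within each library (y axis, log scale) for 4 gene pairs, post-fertilization libraries in red on the left of each pair and pre-fertilization libraries in blue on the right; bars are means of 2 and the dotted line marks equal levels. CAMKK5/CAMKK2 is 2.06 and 2.53 after fertilization and 0.211 and 0.226 before, whereas the MPK1/MAPK9 values of the groups overlap.

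The order of the 7 genes by level differed between the groups. FPKM is per length, so levels of different genes can be set side by side. After fertilization MAPK16 had the highest mean level, followed by MPK1, MAPK12, CAMKK5, MAPK11, CAMKK2 and MAPK3. In that order MPK1, at 12.7 FPKM in post A and 57.9 in post B, overlapped MAPK16, MAPK12, CAMKK5 and MAPK11. Each pair of neighbours from MAPK12 down was apart in both libraries. Before fertilization the order was MPK1, CAMKK2, MAPK16, MAPK11, MAPK12, MAPK3 and CAMKK5, where only the neighbours MAPK11 and MAPK12 overlapped. That overlap is across libraries. Within each library MAPK11 was the higher, at 21.4 against 20.6 FPKM in pre A and 24.1 against 21.9 in pre B. By mean level CAMKK5 thus held the fourth place after fertilization and the last before, and CAMKK2 the sixth after and the second before. In post A alone MPK1 stood below CAMKK5 and MAPK11, so only MAPK16 and MAPK12 were above CAMKK5 there.

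Summed over the 6 CAMKK genes, the level was 96.7 FPKM in post A and 82.15 in post B, against 115.0 and 118.3 in pre A and pre B. CAMKK2 supplied 7.75% and 8.95% of that sum after fertilization, against 24.5% and 28.3% before. CAMKK5 supplied 16.0% and 22.6% after, against 5.17% and 6.38% before. The largest share came from CAMKK6 in every library, at 53.8% and 45.8% after and 51.8% and 49.0% before. Over the 15 MAPK genes the sum was 287.6 FPKM in post A and 349.0 in post B, against 301.9 and 316.3 in pre A and pre B, so the groups overlapped. MAPK16 made up 14.9% and 13.6% of it after fertilization, against 9.16% and 8.78% before. MPK1 made up 4.42% in post A and 16.6% in post B, against 11.2% and 12.6% before.

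**Figure D4:**
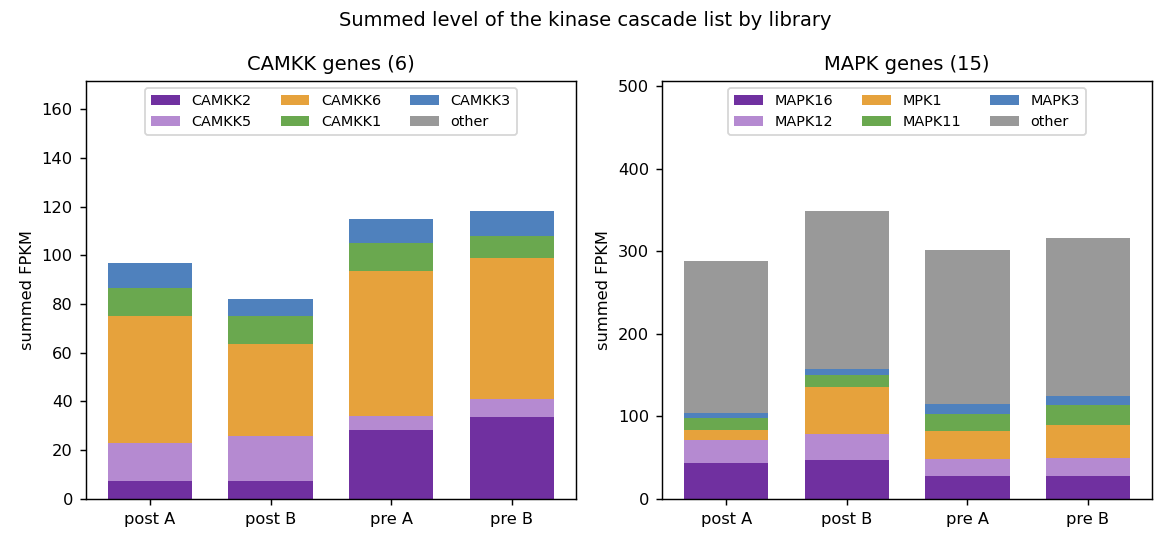
Summed FPKM (y axis) of the 6 CAMKK genes (left panel) and the 15 MAPK genes (right panel) in each library, stacked by gene. CAMKK2 shrinks and CAMKK5 grows in post A and post B within a CAMKK sum of 96.7 and 82.15 FPKM, against 115.0 and 118.3 in pre A and pre B.

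The list of cascade symbols holds 21 genes, the 7 above and 14 others, and 18 passed the filter of at least 1 FPKM in 2 or more libraries. All 7 genes passed it. Of the 18, 3 were called higher after fertilization (CAMKK5, MAPK16 and MAPK12) and 3 lower (CAMKK2, MAPK11 and MAPK3) by limma at an adjusted p of 0.05, where 36.5% of all 17849 tested genes were called, 21.0% higher and 15.5% lower. All 6 were chosen with their change in this comparison known, so nothing is read from their number. A call of one of them, or its loss in another setting, is likewise a description and no test. Without pre A or without pre B the list had 0 calls higher and 1 lower, CAMKK2, in fits that called 677 and 579 genes higher and 99 and 74 lower in all. MAPK12 was not called with quantile normalization, with protein-coding scaling, without a variance trend or without post B. The groups did not overlap for 6 of the 7 genes and for 5 of the 11 others tested, where 75.7% of all tested genes did not overlap, 39.3% being higher and 36.4% lower after fertilization. With quantile normalization the share of calls that were higher was 42.2%, against 57.6% with the authors' scaling.

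Of the 11 other tested genes 0 passed limma's test (smallest adjusted p = 0.0961), and 1, MAPK8, had an unadjusted p under 0.05. Their log2 fold changes ran from -0.40 (CAMKK6) to 0.28 (MAPK15), with 5 above 0 and 6 below. Some small positive values turned with the scalings that lowered the median of all genes. CAMAPK5 was at 0.08 with the authors' scaling, at -0.12 with quantile normalization and at -0.08 with protein-coding scaling, where MAPK2 and MAPK14 were also below 0 (-0.04 and -0.01). The median over the 11 was -0.08, against 0.02 over all tested genes. These genes had been left aside with the outcome known, so the count of 0 is part of that choice.

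The 3 most abundant of them are named by rule. CAMAPK5 stood at 56.6 FPKM in post A and 58.5 in post B, against 52.6 in pre A and 55.9 in pre B. Its mean over all libraries was the highest of the list. CAMKK6 was above it in both pre-fertilization libraries, and MAPK8 in pre A. CAMKK6 was at 52.0 FPKM in post A and 37.6 in post B, against 59.6 in pre A and 57.96 in pre B. CAMKK6 was called lower without post A (log2 fold change -0.63, limma adjusted p = 0.00896) and not with all libraries (limma adjusted p = 0.141). The fit without post A has post B alone after fertilization and takes the spread from the pre-fertilization pair, on the assumption that post B varies alike. MAPK8 was at 43.2 FPKM in post A and 45.4 in post B, against 53.1 in pre A and 52.7 in pre B. Its libraries did not overlap between groups and it missed the threshold (log2 fold change -0.25, limma adjusted p = 0.0961). It was called lower with quantile normalization (log2 fold change -0.43, limma adjusted p = 0.0297) and after division by the protein-coding sum (-0.41, limma adjusted p = 0.0279). Over the 12 alternatives tried, the limma adjusted p ran from 0.0279 to 0.375 for MAPK8 and from 0.00896 to 0.392 for CAMKK6. The 3 genes below the filter, CAMKK4, MAPK7 and MAPK13, stayed under 0.36 FPKM in every library, and CAMKK4 was listed at 0 in all but pre B.

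**Figure D5:**
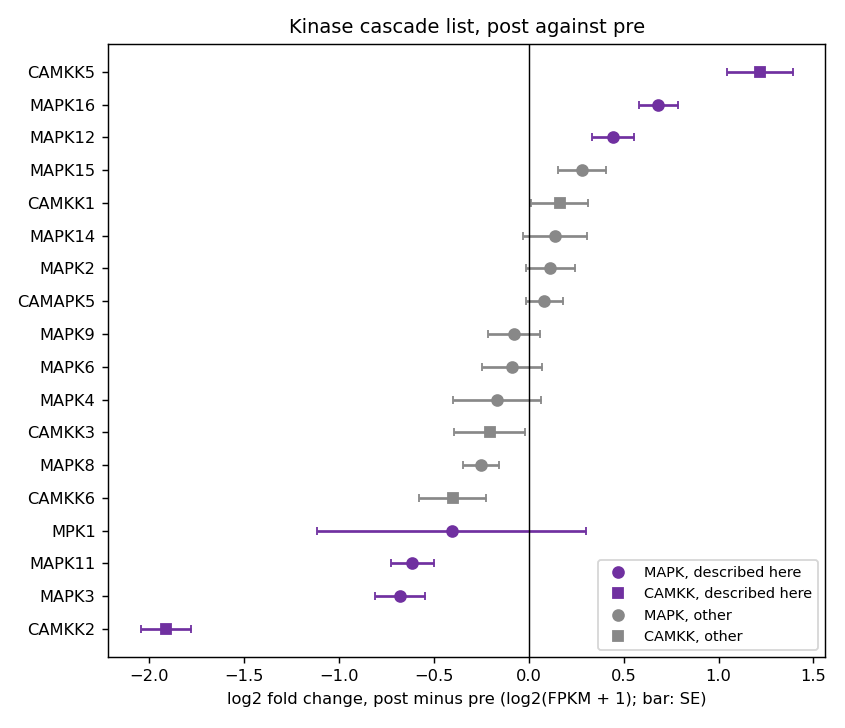
Log2 fold change (post minus pre, from log2(FPKM + 1); x axis) with its SE for the 18 tested genes of the list (y axis), with the 7 genes described here in purple and the 11 others in grey. The 11 others lie between -0.40 and 0.28, while CAMKK2 is at -1.91 and CAMKK5 at 1.22, and the widest bar is that of MPK1.

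Genes next to the 7 on the deposited map give a comparison that their choice did not use. The 7 genes have 14 immediate neighbours, of which 8 were tested and 3 were called, where the background is 36.5%. Those 3 are described after their values were seen. LOC101509548, which begins 10899 bp after CAMKK2, fell together with it, at 1.01 FPKM in post A and 0.580 in post B, against 5.22 and 5.99 in pre A and pre B (log2 fold change -1.89, limma adjusted p = 0.00596). At these low levels the size of the change depended on the pseudocount. It was -2.71 with pseudocount 0.1 and -0.87 with pseudocount 5, so the closeness to the value of CAMKK2 is not an equal fold change. LOC101500819, which ends 13917 bp before CAMKK5, rose as CAMKK5 did, at 32.8 FPKM in post A and 41.8 in post B, against 17.0 and 11.9 in pre A and pre B (log2 fold change 1.32, limma adjusted p = 0.0147). LOC101511731, 6701 bp after MAPK3, rose where MAPK3 was lower, at 12.1 FPKM in post A and 12.0 in post B, against 7.80 and 8.03 in pre A and pre B (log2 fold change 0.55, limma adjusted p = 0.0252). On the other side of MAPK3, LOC101510329 was lower but not called (log2 fold change -0.58, limma adjusted p = 0.0539). On the other side of CAMKK5, LOC101501143 was not called (0.145, limma adjusted p = 0.469), and the other neighbour of CAMKK2 was not tested. Without post A more neighbours were called, and without pre A or without pre B the calls of the 3 called neighbours were lost. Their direction held with quantile normalization and protein-coding scaling. Median-of-ratios scaling nearly repeated the main fit, with factors from 0.9998 (pre B) to 1.0044 (post A), and could not turn it. Nor could the other alternatives, since the groups of these genes do not overlap. The call of LOC101511731 was also lost with protein-coding scaling. No neighbour overlaps one of the 7 genes on the map.

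Genes with a similar pattern were sought among 185 tested genes with a symbol, by the Euclidean distance of log2(FPKM + 1) profiles, each centred on its mean over the 4 libraries. With 4 libraries many genes share a shape, and between 30 and 310 tested genes of any kind were nearer than the ones named. The 1 added to FPKM shrinks changes of low genes, so a near match can differ in fold change. CAMKK2 was nearest to UGT84F2 (distance 0.357), a UDP-glycosyltransferase, and to NAC37 (0.404), a NAC transcription factor. CAMKK5 was nearest to CAGOLS2 (0.149), a galactinol synthase, and to UGT74K2 (0.184). For MAPK16 they were GRX (0.101), a glutaredoxin by its symbol, and PRP1 (0.143).

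MAPK12 lay nearest to a gene with the symbol 275 (0.126) and to UGT87H3 (0.127). For MAPK11 the nearest were UGT91H8 (0.137) and LUX (0.163), an evening-phased clock factor in *Arabidopsis*. For MAPK3 they were PRR59C (0.138), a pseudo-response regulator of the clock by its symbol, and again LUX (0.147). LUX stood at 0.791 FPKM in post A and 0.730 in post B, against 1.91 and 1.94 in pre A and pre B. It passed the filter through the pre-fertilization libraries alone, where it was higher. The labels give no hour of sampling, and a part of the time of day was not tested. MPK1 had no close match among the genes with a symbol, with UGT85K8 at 0.817 and CDPK2, a calcium-dependent protein kinase, at 0.976. Of all tested genes, 109 were nearer to MPK1 than UGT85K8 was. CDPK2 was at 40.7 FPKM in post A and 70.1 in post B, against 78.5 and 73.9 in pre A and pre B, so it shared the low value of post A but not the high value of post B.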

How the data were processed

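The authors deposited 1 table of FPKM values, 1 column per library. Per the submitters' processing notes the tools were FastQC, fastp, HISAT2, Cufflinks and Cuffdiff, without versions. The sources used here name no build, annotation or scaling between libraries. As deposited, the libraries were already at a nearly common median ratio, with median-of-ratios factors from 0.9998 (pre B) to 1.0044 (post A). Their summed FPKM nevertheless ran from 1483040 in pre A to 3574220 in post B. Column names give the group of a library, not its sample. The filter, 1 FPKM or more in at least 2 libraries, left 17849 genes to test. The test was that of limma 3.58.1 (R 4.3.3) on log2(FPKM + 1), with group as the only term and a variance trend (2 residual and 2.55 prior degrees of freedom). Its two-sided p-values were adjusted by the Benjamini-Hochberg method at 0.05. An exact two-sided permutation test of 2 against 2 libraries cannot go below 0.333. Names came from the table and from RefSeq, matched by gene number (25491 genes). Figures used matplotlib 3.10.9. Named are the 7 genes, other called cascade genes or, with none called, the 3 most abundant, and the 2 genes with a symbol nearest in pattern. Marker lists for ovule and carpel, other floral organs, embryo and endosperm, and pollen found 1 of 29 symbols, AP2 (65.6 FPKM in post A and 96.3 in post B, against 60.3 and 56.6 in pre A and pre B). The members, lists and tests were chosen with earlier results of these data known, and the neighbour comparison and the protein-coding scaling were added after the data were seen. Relatives by protein sequence were not analysed here. How reads shared by similar kinase genes were counted is not stated, so values of close copies are uncertain.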

Additional observations from a re-analysis of the deposited data

How the results depend on the processing

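The 12 alternatives included pseudocount 0.1 or 5, no filter, a filter of 5 FPKM, no variance trend and each library left out. The others were quantile normalization, median-of-ratios scaling and protein-coding scaling, the last chosen after the data were seen. The sign of the log2 fold change held for CAMKK2, CAMKK5, MAPK3, MAPK11, MAPK12 and MAPK16. Only quantile normalization and protein-coding scaling could have turned it, since the groups of these genes do not overlap. Median-of-ratios scaling nearly repeated the main fit, with factors from 0.9998 (pre B) to 1.0044 (post A). Their values ran from -2.07 to -1.52 for CAMKK2 and from 0.905 to 1.37 for CAMKK5. MPK1 ran from -1.46 to 0.65 and its sign turned without post A. Leaving out 1 library at a time, 579 to 3828 genes were called higher and 74 to 3576 lower over all genes, and 0 to 4 higher and 1 to 4 lower in the cascade list, with 0 to 1 among its other genes and 0 to 6 among the neighbours of the 7 genes. The lowest counts came without pre A (677 higher and 99 lower) and without pre B (579 and 74), where the spread comes from the post-fertilization pair and the lone pre-fertilization library is assumed to vary alike; of the list CAMKK2 alone was then called. Protein-coding scaling called 4171 genes lower, against 2768, and 1 other cascade gene, as did quantile normalization (1). Pairs of the 7 genes with overlapping pre-fertilization libraries numbered 1, and 3 with quantile normalization and 2 with protein-coding scaling. Protein-coding scaling divided pre A by 0.9459 and pre B by 0.9392. It shifted whole libraries against each other and left the order of genes within each library unchanged. The cause of the count with quantile normalization was not tested. No paired analysis was possible because the columns do not carry the replicate numbers of the labels. The analysis of sequence relatives and its identity minimum were not run. Pre B had the lowest depth, so low values are coarsest there.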
